A study of Oryza sativa with 7 samples.

Results

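The Saltol region is a quantitative trait locus for salt tolerance of seedlings on the short arm of rice (Oryza sativa) chromosome 1, and its tolerant allele is known from the landrace Pokkali. It was taken here by position alone, as the 2 Mb of chromosome 1 that begin at position 10500001 of the MSU v7.0 genome, and its bounds were not set by a methylation value. The interval held 20000 bins of 100 bp, of which 12981 had at least 1 methylated cytosine (mC) listed in any library, out of 2281434 such bins in the whole series. It contained 174679 of the 29604051 cytosines that were listed at least once. Every library listed 38203 of these, made up of 22723 CG, 11805 CHG and 3675 CHH cytosines (H is A, C or T).

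Whole genome bisulphite sequencing was applied to seedlings of 3 cultivars, with 1 library per group and no replicate library, so no value here has an error between replicates. Pokkali, a salinity-tolerant landrace, had a salinity library (200 mM salt) and a control library. N22, a drought-tolerant cultivar, had a desiccation library (seedlings on dry filter paper) and a control library. IR64, a high-yielding cultivar sensitive to both stresses, had a salinity library (200 mM salt), a desiccation library and a control library, and all controls were kept in water. The DNA of each control library was a pool of 3 biological replicates, while the sources used here do not say whether DNA was pooled for stressed seedlings. The mean read depth per mC in the interval was between 11.8 in IR64 salinity and 15.6 in Pokkali control, against 12.501 to 17.0 in the rest of chromosome 1.

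In plants, CG methylation is copied at each replication by the maintenance methyltransferase MET1, CHG methylation is kept by chromomethylases that read histone H3 lysine methylation, and CHH methylation has to be set anew by RNA-directed DNA methylation or by CMT2. Methylation in all contexts is typical of transposable elements, whereas methylation in CG alone is typical of gene bodies. The Saltol region is best known for SKC1, an HKT-family transporter that withdraws sodium ions from the xylem and so keeps them from the shoot. No annotation or sequence of this build was used here, so bins are named by coordinate, and the position of SKC1 or of any other gene in the interval was not analysed here.

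The first question was how densely, and in which context, the interval was methylated in each cultivar. The libraries listed 85370 mCs in Pokkali salinity, 100075 in Pokkali control, 89766 in N22 desiccation, 103826 in N22 control, 93721 in IR64 salinity, 100760 in IR64 desiccation and 88683 in IR64 control. Chromosome 1 was divided into 21 windows of 2 Mb, with the interval as one of them. In each of the 3 IR64 libraries 2 of the other windows held more mCs than the interval, and in each Pokkali and N22 library 4 did. The interval was thus among the more densely methylated windows of the chromosome in every library. The 100 kb on the inner side of the start held 4689 mCs in Pokkali control, 6554 in N22 control and 3896 in IR64 control, and the 100 kb before it held 4595, 4887 and 4080 in the same libraries. The last 100 kb inside the end held 6265, 6913 and 5083 mCs in these libraries, and the 100 kb after it held 3137, 4143 and 2895.

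Among the listed mCs, CG and CHG had a larger share and CHH a smaller share in the interval than in the rest of the chromosome. The CHG share was 28.5% to 30.7% in the interval, against 25.4% to 28.4% in the rest. These are shares of mCs and not levels. The pooled CHG level was lower in the interval in all 7 libraries, but by uneven amounts. It was 60.8% against 62.5% in Pokkali control and 64.02% against 64.03% in IR64 desiccation. CG mCs made up 47.2% to 50.6% of the mCs in the interval, against 44.7% to 47.8% in the rest of chromosome 1, and the share was higher in the interval in all 7 libraries. The CHH share was 18.7% to 23.6% in the interval, against 23.8% to 29.9% in the rest, and was lower in the interval in all 7 libraries. Among the 2 Mb windows the share of CG in Pokkali control (48.4%) was exceeded by 5 others, and that in N22 control (50.6%) by 3.

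The pooled methylation level is the number of methylated reads at the listed mCs as a percent of their total depth. In CG context it was 85% in Pokkali salinity, 83.0% in Pokkali control, 88.1% in N22 desiccation, 90.1% in N22 control, 87.3% in IR64 salinity, 87.0% in IR64 desiccation and 85.9% in IR64 control. In CHG context the levels were 65.3% in Pokkali salinity, 60.8% in Pokkali control, 65.8% in N22 desiccation, 68.2% in N22 control, 64.8% in IR64 salinity, 64.0% in IR64 desiccation and 63.3% in IR64 control. Pokkali control was thus the lowest and N22 control the highest library in both contexts. CHH levels were 39.6% in Pokkali salinity, 33.6% in Pokkali control, 37.4% in N22 desiccation, 40.5% in N22 control, 37.6% in IR64 salinity, 35.7% in IR64 desiccation and 34.3% in IR64 control. The 95% Wilson interval of Pokkali control was 82.9% to 83.1% in CG and 33.4% to 33.7% in CHH. Such intervals cover counting error only, and they do not cover the spread between seedlings.

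These levels rest on different sets of cytosines, since each library lists only what was called methylated in it. Over the cytosines listed in both libraries, the CG level was 85.9% in Pokkali control and 87.0% in IR64 control, a difference of -1.13 percentage points (34171 mCs, -0.88 in the rest of chromosome 1). CHG showed -1.60 points in the interval (19357 mCs), whereas the rest of the chromosome showed 0.05. It was -0.36 points as a mean of site levels and -0.59 points at matched depth. The CHH difference was -0.89 points (10891 mCs). It turned to 0.26 points when both libraries were thinned to the same depth, so no direction is given for CHH.

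N22 control was more methylated than IR64 control in each context. At shared mCs of the interval the CG level was 90.3% in N22 control and 88.1% in IR64 control, a difference of 2.21 points (33740 mCs). This was below the 3.49 points of the rest of the chromosome, and 19 of the 20 other windows had a larger CG difference. In CHG the difference was 4.70 points in the interval (70.6% in N22 control, 65.9% in IR64 control) and 5.40 points in the rest. CHH went the other way, with 4.98 points in the interval (45.7% in N22 control, 40.7% in IR64 control, 9826 mCs) and 2.81 points in the rest, and 1 other window had a larger CHH difference. Whether the interval differs from other windows beyond this rank was not tested. The CG difference between N22 and IR64 was 1.21 points when depths were matched.

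Differentially methylated regions (DMRs) were then called in bins of 100 bp with at least 3 mCs listed in both libraries. A bin was called where the pooled levels differed by at least 20 points with an adjusted p of at most 0.01 by Fisher's exact test (two-sided, with the Benjamini-Hochberg adjustment taken across every bin tested on the 12 chromosomes). With 1 library per group a DMR shows that the reads of 2 libraries differed, and not that 2 cultivars or conditions did. A read that covers several cytosines was counted at each of them, so the p-values can be too small. Of the 20000 bins, 6743 could be tested between Pokkali control and IR64 control. A further 2466 had mCs in both libraries but fewer than 3 in common, 1723 had mCs in Pokkali control alone, 817 in IR64 control alone and 8251 in neither. The 679 bins with exactly 3 shared mCs had levels of 67.3% in Pokkali control and 66.6% in IR64 control, and the 1334 bins with 2 shared mCs, which were left out, had 72.1% and 76.7% in the same libraries.

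Between Pokkali control and IR64 control 331 of 6743 tested bins of the interval (4.91%) were DMRs, against 4.76% in the rest of chromosome 1 and 4.47% of all tested bins of the genome. Of these, 133 were higher in Pokkali and 198 were lower. The background was 1.67% of all tested bins for the higher and 2.81% for the lower direction. In the ranking of the 21 windows 8 had a larger share of DMRs, so the interval was close to the middle of the chromosome in this respect. The median difference over all tested bins was -0.23 points. DMRs were spread over all 20 windows of 100 kb in the interval, with between 4 and 27 in each.

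The cytosines in the DMRs were more often CG alone than those in tested bins. The shared mCs were all in CG context in 43.5% of the DMRs, against 17.1% of all tested bins. At least 1 shared CHH cytosine was present in 24.2% of the DMRs and in 40.8% of the tested bins. When each context was tested by itself, 245 of 4775 bins were DMRs in CG (5.13%, background 4.81%), 88 of 2919 in CHG (3.01%, background 2.63%) and 38 of 1148 in CHH (3.31%, background 2.09%). In the rest of chromosome 1 CG had a share of 5.30%, CHG of 2.42% and CHH of 2.25%, so the share in CG was close to its surroundings.

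**Figure D1:**
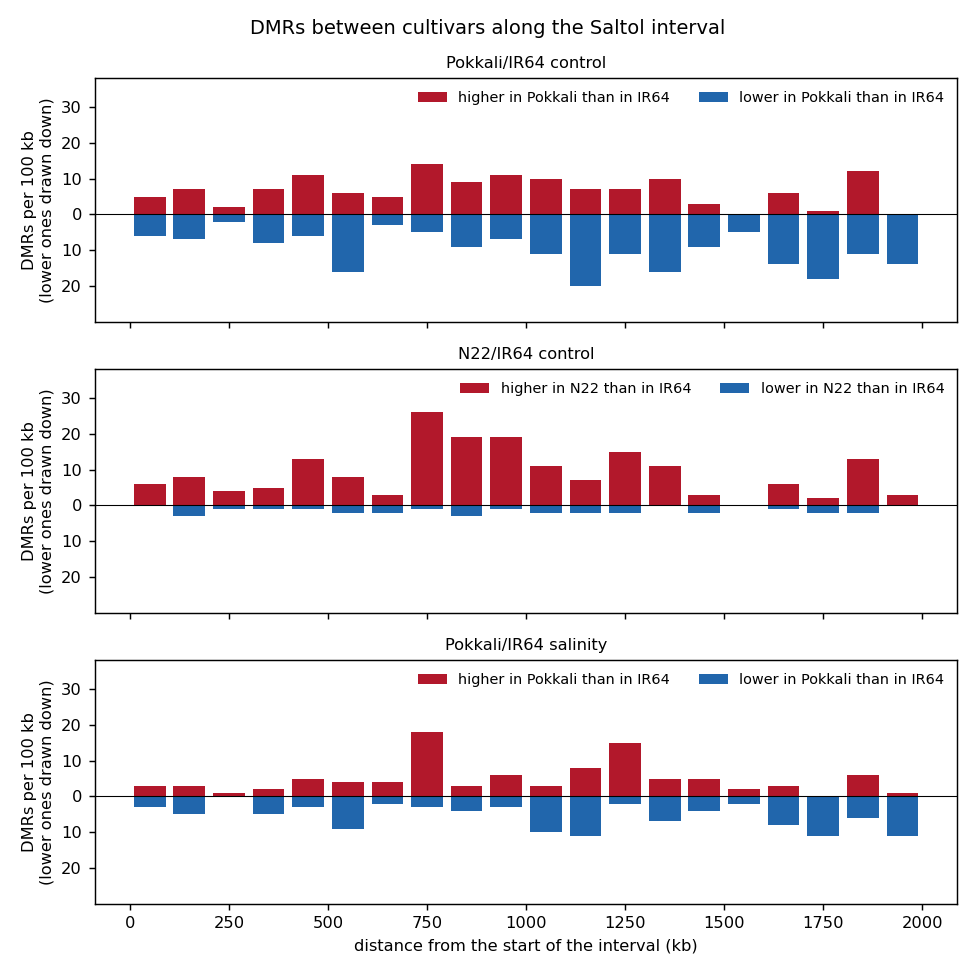
Number of DMRs in each 100 kb of the interval (x axis, distance from its start in kb) for Pokkali/IR64 control, N22/IR64 control and Pokkali/IR64 salinity, with bins higher in the first-named cultivar drawn upwards in red and bins lower in it drawn downwards in blue. DMRs of Pokkali ran in both directions (133 higher and 198 lower in control), whereas those of N22 were mostly higher (182 of 210).

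A set of 5 higher and 5 lower bins with the largest difference and at least 50 reads in each library are described in every library. The shared mCs of 9 of these 10 bins were all in CG context, and the 10th (12392701-12392800) had 1 CHH cytosine besides 3 CG cytosines.

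Of the higher bins with enough reads, 11429101-11429200 differed most, and its 3 shared CG cytosines were methylated at 95.8% (91 of 95 reads, Wilson interval 89.7% to 98.4%) in Pokkali control and at 23.4% (15 of 64 reads, 14.7% to 35.1%) in IR64 control. The adjusted p of Fisher's exact test was 2.77e-20. The level was 96.4% in Pokkali salinity, 96.9% in N22 desiccation and 90.0% in N22 control, so both N22 libraries lay with Pokkali. IR64 salinity had 16.7% and IR64 desiccation 29.5%, but at 1 and 2 of the 3 cytosines only. Position 11429131 on the plus strand had 97.2% in Pokkali control and 29.2% in IR64 control, and its partner 11429132 on the minus strand had 95.8% and 31.2%, so both strands of this CG site differed alike.

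Both N22 libraries also lay with Pokkali in the other 4 higher bins. Bin 10566601-10566700 (4 CG) had 84.9% in Pokkali control and 15.9% in IR64 control, with 73.2% in Pokkali salinity and 100% in N22 control. Bin 12327801-12327900 (4 CG) had 91.0% in Pokkali control and 22.2% in IR64 control. It was the only higher bin of the 5 that could be tested again between the salinity libraries, which share no reads with the controls. There the difference was 52.9 points in the same direction, with an adjusted p of 1.06e-18 in Fisher's exact test. Bins 11542801-11542900 and 11023001-11023100 (4 CG each) had 92.3% and 91.4% in Pokkali control, against 26.2% and 31.0% in IR64 control. In IR64 desiccation, where 3 of these 4 bins had listed mCs, the levels were 27.2% to 41.7%.

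In the lower bins Pokkali control was below IR64, and N22 was nearer to IR64 wherever it listed any of their cytosines. Bin 11964401-11964500 had 21.3% (16 of 75 reads, Wilson interval 13.6% to 31.9%) in Pokkali control and 89.7% (61 of 68 reads, 80.2% to 94.9%) in IR64 control at 3 CG cytosines, and the adjusted p of Fisher's exact test was 5.29e-15. IR64 salinity had 92.1% and IR64 desiccation 84.6%, while none of the 3 cytosines was listed in Pokkali salinity. N22 listed 1 of them, at 78.6% in N22 desiccation and 66.7% in N22 control.

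Bin 10981201-10981300 was the most evenly covered of the lower bins. Its CG cytosines had 29.7% in Pokkali salinity, where 3 of the 4 were listed, and with all 4 listed 25.6% in Pokkali control, 93.5% in N22 desiccation, 90.5% in N22 control, 96.9% in IR64 salinity, 97.7% in IR64 desiccation and 91.6% in IR64 control. The 2 Pokkali libraries and the 5 others did not overlap, and between the salinity libraries the difference was -67.8 points (adjusted p 2.67e-21, Fisher's exact test). Bin 11858601-11858700 (4 CG) behaved likewise with 19.8% in Pokkali control and 87.0% in IR64 control, and in Pokkali salinity it had 43.8% from 32 reads at 3 of the 4. Bin 11435701-11435800 had 19.2% in Pokkali control and 83.7% in IR64 control at 5 CG cytosines, none of which was listed in either N22 library. The difference kept its sign and was called again between the salinity libraries in both of these bins. In bin 12392701-12392800 the level was 22.2% in Pokkali control and 84.7% in IR64 control.

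**Figure D2:**
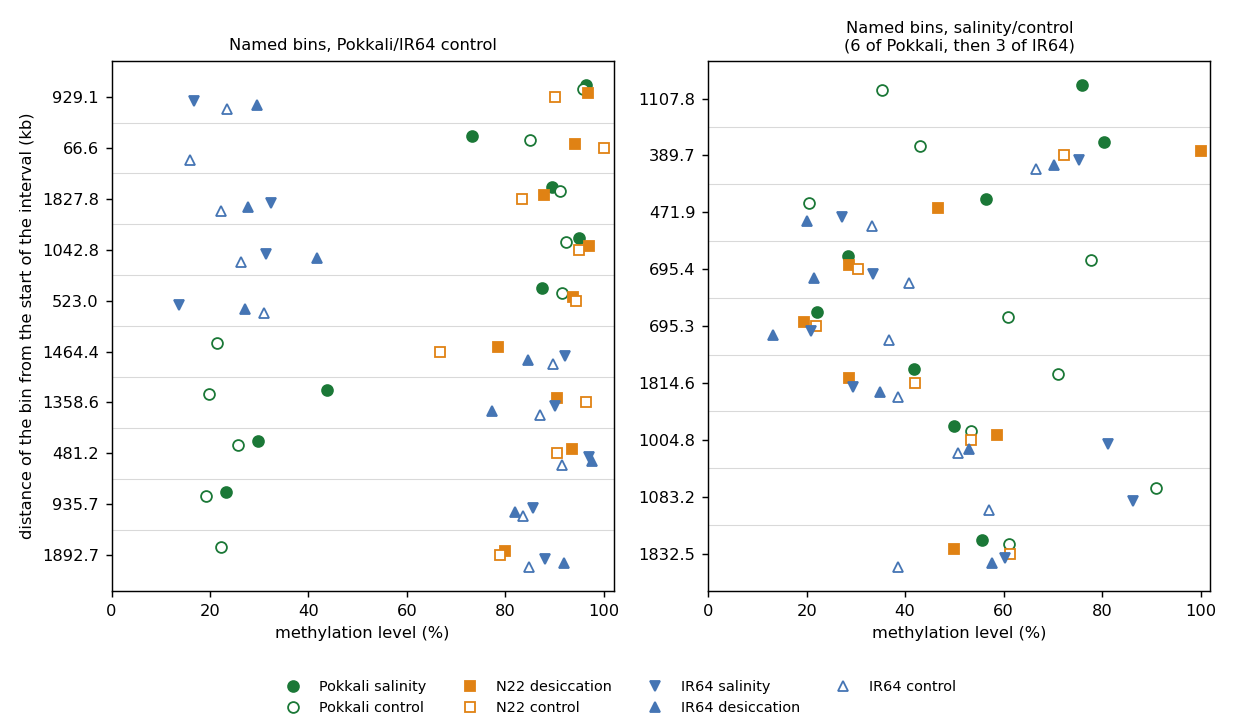
Methylation level (x axis, %) of the named bins in each library that listed any of their cytosines, with filled symbols for stressed and open symbols for control libraries and rows labelled by the distance of the bin from the start of the interval in kb. In the upper 5 bins of the left panel Pokkali and N22 sat apart from IR64. In the lower 5 Pokkali sat apart from the other libraries that listed any cytosine of the bin. N22 listed no cytosine of bin 11435701-11435800 and 1 of 3 in bin 11964401-11964500. The right panel holds the bins called between salinity and control.

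Levels of the remaining libraries were compared at all DMR bins with at least 3 of the shared cytosines listed. At the bins higher in Pokkali, N22 control was nearer to Pokkali control in 95 of 109 bins, with a median level of 84.4%, against 84.4% in Pokkali control and 48.4% in IR64 control. At the bins lower in Pokkali, N22 control was nearer to IR64 control in 138 of 152 bins, with a median level of 83.8%, against 50.8% in Pokkali control and 84.8% in IR64 control. N22 control was therefore mostly nearer to the higher of the 2 control levels in both sets, among the bins that could be compared. These were 109 of the 133 higher and 152 of the 198 lower bins. Unmethylated cytosines are not listed, so bins in which N22 lacked methylation dropped out. This filter by itself favours the higher level, and its part in the counts was not tested. The bins were also chosen for their difference between the 2 controls, and no test is given for them.

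The same direction was seen in libraries that had no part in choosing the bins. Of the 331 DMRs between the controls 268 could also be tested between Pokkali salinity and IR64 salinity, and 253 of them (94.4%) had the same sign, against 59.3% of all 5737 bins tested in both pairs. A total of 123 (45.9%) were called again and none was called in the opposite direction. The median difference was 29.5 points in control and 22.1 points in salinity for the higher bins, and -28.7 and -24.6 points for the lower ones. In the rest of chromosome 1 94.3% of such DMRs had the same sign and 52.4% were called again with that sign, a larger share than in the interval. Of the DMRs, 119 of the higher and 159 of the lower bins had at least 3 of their cytosines listed in Pokkali salinity. In these, Pokkali salinity was nearer to Pokkali control than to IR64 control at 110 and 141 bins.

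Neighbouring DMRs were merged over gaps of up to 300 bp. The 198 lower bins formed 159 groups and the 133 higher bins 110 groups, so most DMRs stood alone. One group exceeded 3 DMRs. It had 11 DMRs between 12422901 and 12424600, and its 131 shared mCs (35 CG, 90 CHG and 6 CHH) had a level of 42.6% in Pokkali control and 69.5% in IR64 control. The difference was mainly in CHG. The CG level was 81.9% in Pokkali control and 87.5% in IR64 control, whereas the CHG level was 28.3% in Pokkali control and 63.0% in IR64 control. The CHG level was 32.9% in Pokkali salinity, which listed 71 of these 90 CHG cytosines. In the other libraries, which listed 89 or 90 of them, it was 70.2% in N22 desiccation, 73.8% in N22 control, 61.3% in IR64 salinity and 61.1% in IR64 desiccation. The 2 Pokkali libraries were thus below the 5 others by more than 28 points, and in the salinity pair all 11 bins had the same sign and 8 were called again.

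Several groups had 3 DMRs, and those with the largest pooled difference are named, a choice made after their values were seen. Between 11542401 and 11543000 the level of 11 shared mCs was 89.0% in Pokkali control and 33.0% in IR64 control. Between 11588101 and 11588400 the level of 15 shared mCs was 25.3% in Pokkali control and 74.5% in IR64 control. N22 control had 94.5% (10 of the 11 listed) in the first and 92.0% (all 15 listed) in the second of these stretches.

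Most DMRs between N22 and IR64 were higher in N22, though their share was below that of the genome. Between N22 control and IR64 control 210 of 6429 tested bins (3.27%) were DMRs, against 4.10% in the rest of chromosome 1 and 3.79% in the genome. A total of 182 were higher in N22 (background 3.18%) and 28 were lower (background 0.615%). Of the other windows of the chromosome 16 had a larger share. In the desiccation libraries, which share no reads with the controls, 171 of 6571 bins were DMRs between N22 and IR64 (background 3.36%), with 128 higher in N22 (background 2.46%) and 43 lower (background 0.903%). Of the 210 DMRs between the controls 183 could be tested there, and 171 had the same sign, against 59.8% of all bins tested in both pairs.

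Among bins with at least 50 reads in both control libraries, N22 and IR64 differed most in bin 10673801-10673900. There 2 CG and 1 CHG cytosines had 94.1% in N22 control and 13.8% in IR64 control (adjusted p 7.16e-28, Fisher's exact test). The level was 91.4% in N22 desiccation, 78.3% in Pokkali control and 41.8% in Pokkali salinity, and no cytosine of the bin was listed in the stressed IR64 libraries. Bin 12162601-12162700 (5 CG) had 88.1% in N22 control and 15.6% in IR64 control. Here Pokkali, with 18.6% in its control from 3 cytosines, was near IR64. Bin 11361601-11361700 (4 CG) had 84.4% in N22 control and 16.7% in IR64 control, and in the desiccation pair the difference was 73.2 points.

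The lower bins of N22 named by the same rule differed less than the named higher ones. Over all DMRs of this pair the median absolute difference was 28.3 points for the 28 lower and 31.3 points for the 182 higher bins. Bin 10658201-10658300 (5 CG), the first by size among those with enough reads, had 30.7% in N22 control and 67.8% in IR64 control, with 30% in N22 desiccation and 69.2% in IR64 desiccation. Bin 11657201-11657300 had 56.4% in N22 control and 91.0% in IR64 control, and bin 11546801-11546900 had 60.2% and 93.0% in the same libraries. Both Pokkali libraries were near IR64 in the last of these, with 92.4% in Pokkali salinity and 92.8% in Pokkali control.

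The largest group of DMRs between N22 and IR64 had 7 DMRs between 11361601 and 11362800. Its 64 shared mCs (31 CG, 32 CHG and 1 CHH) had 90.9% in N22 desiccation, 90.3% in N22 control, 61.6% in IR64 desiccation (60 of them listed) and 54.5% in IR64 control. The difference was in both contexts, with a CHG level of 86.7% in N22 control and 46.8% in IR64 control and a CG level of 93.6% and 61.3% in these libraries. Pokkali lay between them with 73.8% in Pokkali salinity and 76.8% in Pokkali control.

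The 3 groups of 5 DMRs differed in context. Between 11792901 and 11793400 the CG level was 95.5% in N22 control and 54.3% in IR64 control at 53 cytosines. Between 11857901 and 11858800 nearly all shared mCs were CG (54 of 55), with 96.1% in N22 control and 66.0% in IR64 control. Between 11413301 and 11414500 the CG level differed little (96.8% in N22 control, 94.3% in IR64 control), whereas the CHG level was 91.4% in N22 control and 22.5% in IR64 control at 16 cytosines. The CHG level of this stretch was also high in Pokkali (85.6% in Pokkali salinity, 84.1% in Pokkali control) and low in IR64 salinity (29.5% at 12 of the 16 cytosines) and IR64 desiccation (26.7% at 10 of them). CHG methylation was therefore lower in the 3 IR64 libraries than in the 4 others, in a stretch where CG levels were between 94.3% and 96.8% in all 7 libraries.

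Between Pokkali control and N22 control 317 of 6924 tested bins (4.58%) were DMRs, against 5.81% in the rest of chromosome 1 and a background of 5.32%. Only 27 were higher in Pokkali (background 0.65%) and 290 were lower (background 4.67%). This comparison shares a library with each of the others between controls. The 2 lower bins named by the same rule were 10842801-10842900 (6 CG), with 17.6% in Pokkali control and 95.5% in N22 control, and 11858601-11858700, given above. Both higher bins, 11195301-11195400 and 11195401-11195500, lay side by side and are described with the salinity comparison.

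Under salinity 206 of 6218 tested bins (3.31%) were DMRs between Pokkali and IR64, against 3.82% in the rest of the chromosome and 3.58% in the genome. The numbers were 97 higher in Pokkali (background 1.4%) and 109 lower (background 2.18%). Higher bins thus made up 47.1% of the DMRs in the interval and 38.3% in the rest of the chromosome. At a minimum depth of 10 these shares were closer, at 37.6% and 34.9%. At shared mCs the CG level was 87.0% in Pokkali salinity and 88.0% in IR64 salinity, and the CHG level was 67.9% in Pokkali salinity and 67.6% in IR64 salinity. The CHH level was 45.7% in Pokkali salinity and 42.8% in IR64 salinity, a difference of 2.94 points (3.10 in the rest of chromosome 1).

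The second question was which bins were methylated in 1 cultivar only. A bin counted where every library of that cultivar listed at least 3 mCs and no library of the other 2 cultivars listed any. There were 120 such bins in Pokkali, 88 in N22 and 145 in IR64. These were 1.63% of the bins listed in both Pokkali libraries, 1.19% of those in both N22 libraries and 2.07% of those in all IR64 libraries, against 2.84%, 6.39% and 1.14% in the rest of chromosome 1. By these pooled shares the interval held relatively fewer bins of Pokkali or N22 alone and more of IR64 alone. The other windows of 2 Mb were uneven, with up to 486 bins of Pokkali alone, 3000 of N22 alone and 237 of IR64 alone. Their medians were 92, 162.5 and 45, so by number the interval lay above the median in Pokkali and IR64 and below it in N22. In the ranking of windows 9 others held more bins of Pokkali alone, 15 more of N22 alone and 2 more of IR64 alone.

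Only 2 of the 120 bins of Pokkali, none of the 88 bins of N22 and 3 of the 145 bins of IR64 had both neighbouring bins listed in all 7 libraries. A bin with no listed mC may be unmethylated, too shallow or absent from the genome of that cultivar, and these cases cannot be told apart in tables that list methylated cytosines only.

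**Figure D3:**
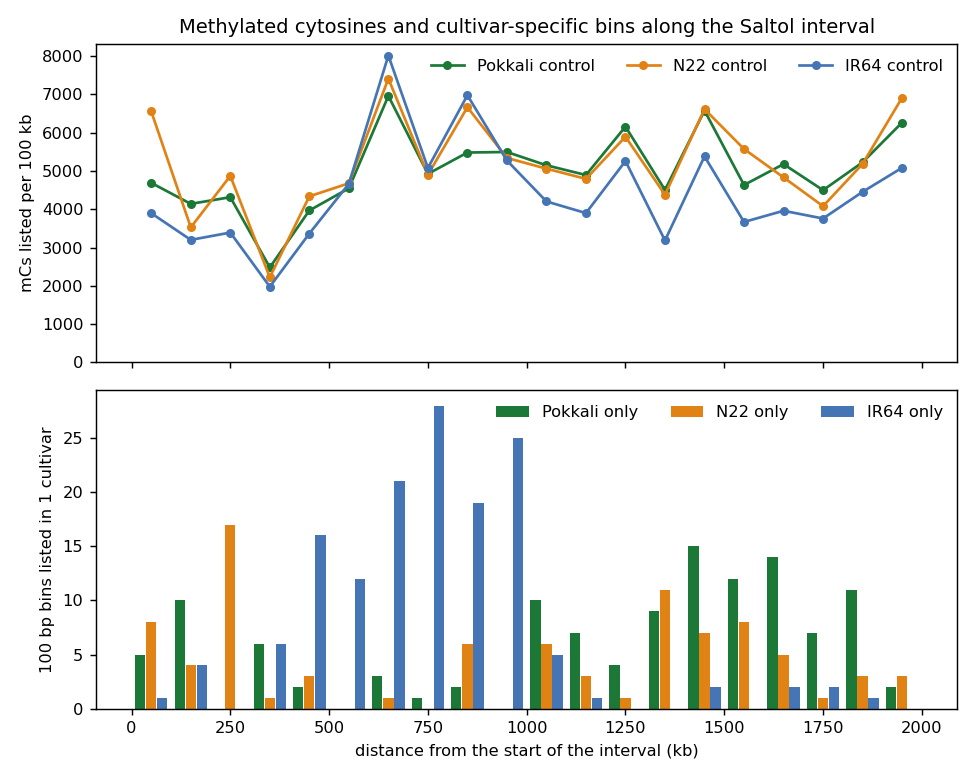
Number of mCs per 100 kb in the control libraries (upper panel) and number of 100 bp bins listed in 1 cultivar only (lower panel, bars) against the distance from the start of the interval in kb. IR64 exceeded Pokkali in mCs only in 4 adjoining windows between 500 and 900 kb, and 121 of the 145 bins of IR64 alone fell between 400 and 1000 kb.

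The bins of 1 cultivar were unevenly placed. Between 10900001 and 11500000, a stretch of 600 kb bounded after its values were seen, lay 8 bins of Pokkali alone, 10 of N22 alone and 121 of the 145 bins of IR64 alone. The following 900 kb, to 12400000, held 89 of the 120 bins of Pokkali alone, 45 of N22 alone and 13 of IR64 alone. The mC numbers pointed the same way against Pokkali, but they rest on the same listed cytosines and are not separate support. IR64 control listed more mCs than Pokkali control in 4 of 20 windows of 100 kb, all adjoining (11000001 to 11400000), against 30 of 412 windows (7.28%) in the rest of chromosome 1. It listed more than N22 control in 3 of the 20 windows, all among these 4, against 62 of 412 windows (15.0%) in the rest. In the window that began at 11100001 the numbers were 6959 in Pokkali control, 7412 in N22 control and 8014 in IR64 control. In the salinity pair IR64 salinity exceeded Pokkali salinity in 16 of the 20 windows, these 4 among them, and in 60.7% of the windows of the rest of the chromosome, so these libraries did not set the 4 windows apart.

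The longest runs, with gaps of up to 1 bin, had 8 bins in IR64, 7 in N22 and 6 in Pokkali. The IR64 run spanned 11449901 to 11450800 and listed 67 mCs in IR64 salinity, 80 in IR64 desiccation and 63 in IR64 control, with CG levels of 81.4%, 84.2% and 82.3% in the same libraries. In the 1000 bp before it both Pokkali and both N22 libraries listed 0 mCs, and in the 1000 bp after it they listed between 10 and 16. The second IR64 run, 11196401 to 11197100, was methylated in all contexts. It listed 105 mCs in IR64 salinity, 104 in IR64 desiccation and 116 in IR64 control, and in the control library the level was 92.8% in CG, 79.8% in CHG and 41.7% in CHH. In the 1000 bp before this run Pokkali control listed 154 mCs and N22 control 169, and in the 1000 bp after it they listed 153 and 167, so that the flanks of this second run, unlike the stretch before the longest one, were methylated in the cultivars in which the run itself was empty.

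The N22 run between 11878201 and 11878900 listed 84 mCs in N22 desiccation and 87 in N22 control, with CG levels of 90.2% and 90.1% and CHG levels of 58.4% and 67.1% in these libraries. The Pokkali run between 12316701 and 12317300 listed 51 mCs in Pokkali salinity and 66 in Pokkali control, with CG levels of 90.6% and 80.8%. A Pokkali run of equal number, 12201801 to 12202500, was only partly methylated, with CG levels of 34.6% in Pokkali salinity and 39.2% in Pokkali control. The third runs were shorter and spanned 11547201-11547600 in Pokkali, 10536601-10537100 in N22 and 11298101-11298600 in IR64.

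The third question was what salinity changed in the tolerant and in the sensitive cultivar. At shared mCs the CHH level of the interval was 45.2% in Pokkali salinity and 40.0% in Pokkali control, a difference of 5.22 ± 0.34 points (95% counting interval, 11091 mCs). In IR64 it was 42.4% in IR64 salinity and 40.9% in IR64 control, a difference of 1.58 ± 0.34 points (11823 mCs). The CHH level was higher under salinity in 19 of the 20 windows of 100 kb in Pokkali and in 18 of 20 in IR64, and the range over windows was -0.62 to 8.13 points in Pokkali and -0.93 to 4.93 points in IR64. The rest of chromosome 1 showed 4.86 points in Pokkali and 1.22 points in IR64, and the difference in Pokkali was exceeded by 10 of the other 20 windows and that in IR64 by 2. Of the CHH cytosines that differed in level, 63.8% were higher under salinity in Pokkali and 53.5% in IR64.

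Depth moved with this result. The mean depth at these cytosines was 12.502 in Pokkali salinity and 17.3 in Pokkali control, and 12.9 in IR64 salinity and 13.8 in IR64 control. When each cytosine was thinned to the shallower of the 2 libraries and called again, an alternative added after the data were seen, the difference was 2.56 points in Pokkali and 0.66 in IR64. The same step gave 2.75 points in Pokkali and 0.27 in IR64 in the rest of the chromosome. A CHH cytosine with a low level is less often called at a low depth, and what remains of the difference beyond depth was not tested.

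**Figure D4:**
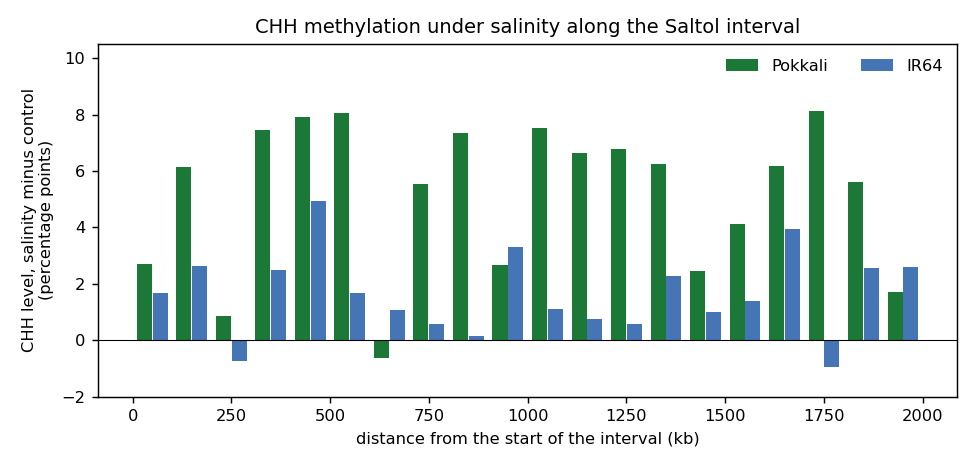
Difference in CHH level at shared mCs, salinity minus control in percentage points (y axis), for each 100 kb of the interval (x axis, distance from its start in kb) in Pokkali and IR64 before depth was matched. The bars of Pokkali were above 0 in 19 of 20 windows and those of IR64 in 18.

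In CHG the level was 67.1% in Pokkali salinity and 64.9% in Pokkali control, a difference of 2.19 points that was 0.43 points at matched depth. It was 66.8% in IR64 salinity and 66.0% in IR64 control, a difference of 0.80 points (0.76 at matched depth). The CG difference was 0.37 points in Pokkali and 0.47 in IR64. The value of Pokkali was above those of all 20 other windows, which ran from -3.59 to 0.28 points, but it turned to -0.17 points at matched depth and to -0.05 points as a mean of site levels.

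Few bins were DMRs between salinity and control. In Pokkali 23 of 6955 tested bins were called (0.331%), against 0.392% in the rest of chromosome 1 and 0.287% in the genome. A total of 15 were higher under salinity (background 0.237%) and 8 were lower (background 0.0502%). With both libraries thinned to the same depth 9 bins were called (0.129%, background 0.136%), 4 higher and 5 lower. At a minimum depth of 10 there were 4 (0.0909%, background 0.22%), 1 higher and 3 lower. Higher bins were thus not in excess in the interval under either setting, though few bins were called. In the rest of chromosome 1 they stayed in excess, with 182 higher and 28 lower at matched depth. At a minimum depth of 10 the rest had 200 higher and 46 lower. In IR64 3 of 6891 bins were called (background 0.0528%), all of them higher under salinity (background 0.0331%, and 0.0197% for lower bins), and none was called at matched depth. A difference between these 2 counts was not tested.

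CHH cytosines taken alone gave more calls. In Pokkali 34 of 1168 tested bins were called (background 2.31%), of which 33 were higher under salinity (background 2.24%) and 1 was lower (background 0.0742%). The 33 bins fell in 16 of the 20 windows of 100 kb, and their median level was 62.7% in Pokkali salinity and 34.3% in Pokkali control. Their median depth per cytosine was 8.36 in Pokkali salinity and 17.5 in Pokkali control, and at matched depth, also added after the data were seen, 16 bins were called, all higher (1.37%, background 1.26%, and 1.40% called in the rest of chromosome 1). The 371 CHH cytosines in these bins were at 60.7% in Pokkali salinity and 32.1% in Pokkali control. The other libraries, in which 221 to 267 of them were listed, lay between these levels, with 46.3% in N22 desiccation, 52.3% in N22 control, 45.0% in IR64 salinity, 44.6% in IR64 desiccation and 41.7% in IR64 control. In IR64 6 of 1191 bins were called in CHH (background 0.418%), 5 of them higher (background 0.247%) and 1 lower (background 0.171%).

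The largest fall under salinity was in 2 adjoining bins of Pokkali. In bin 11195401-11195500 the level of 11 shared mCs (6 CG and 5 CHG) was 28.3% (68 of 240 reads, Wilson interval 23.0% to 34.3%) in Pokkali salinity and 77.9% (116 of 149 reads, 70.5% to 83.8%) in Pokkali control, with an adjusted p of 2.63e-17 in Fisher's exact test. In bin 11195301-11195400 the level of 10 shared mCs was 22.0% in Pokkali salinity and 60.8% in Pokkali control. These same bins were higher in Pokkali control than in N22 control, and the group of 3 DMRs that holds them (11195201 to 11195500) was higher in Pokkali control than in IR64 control. Over the 33 mCs shared by the Pokkali and IR64 controls, of which the other libraries listed 30 or 31, the level was 31.1% in Pokkali salinity, 74.9% in Pokkali control, 26.7% in N22 desiccation, 29.2% in N22 control, 31.1% in IR64 salinity, 23.6% in IR64 desiccation and 44.6% in IR64 control. Pokkali control thus stood apart from the 6 other libraries, and every comparison with it in these bins rests on that library.

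Single cytosines showed the same picture. The CG site at 11195403 on the plus strand had 29.7% in Pokkali salinity and 85.7% in Pokkali control, and 11195404 on the minus strand had 31.0% and 80%. The pair at 11195455 and 11195456, near the end of the bin, was at 80% or above in all 7 libraries. Depth moved with the level here. In bin 11195301-11195400 the mean depth per listed mC was 31.8 in Pokkali salinity, 18.8 in Pokkali control, 49.6 in N22 desiccation, 48.4 in N22 control, 38 in IR64 salinity, 53.5 in IR64 desiccation and 24.5 in IR64 control. The 2 libraries with the lowest depth had the highest levels, and the part of depth in the difference was not tested. In the next bin downstream, 11195501-11195600, the level was 77.0% in Pokkali salinity and 73.7% in Pokkali control.

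The third lower bin of Pokkali, 12314601-12314700, had 41.7% in Pokkali salinity and 71.0% in Pokkali control at 14 CG cytosines and 1 CHG cytosine. The 5 other libraries, which listed 7 to 12 of the 15, had between 28.7% and 42.1%, so that here, too, Pokkali control was the library that differed.

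Of the 3 higher bins named by the same rule, 2 were rich in CHH. Bin 10971901-10972000 (9 CHH) had 56.5% in Pokkali salinity from 62 reads and 20.5% in Pokkali control from 190 reads. Bin 10889701-10889800 (6 CHH and 1 CG) had 80.5% in Pokkali salinity and 43.0% in Pokkali control. Its 5 CHH cytosines from 10889778 to 10889800 on the minus strand had between 75.0% and 78.6% in Pokkali salinity and between 23.1% and 33.3% in Pokkali control. The sixth CHH cytosine, 10889734 on the plus strand, went the other way, with 75% of 8 reads in Pokkali salinity and 100% of 10 reads in Pokkali control. The same bin had 75.3% in IR64 salinity, 70.2% in IR64 desiccation and 66.7% in IR64 control. The third bin, 11607801-11607900, had 75.9% in Pokkali salinity and 35.3% in Pokkali control at 8 CG cytosines. These cytosines lay on the minus strand within 45 bp and had depths of 5 to 9 in Pokkali salinity and 6 to 11 in Pokkali control, so few reads lay behind this call. No cytosine of this bin was listed in N22 or IR64.

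In IR64 the 3 called bins were all rich in CHH. Bin 11504801-11504900 (13 CHH) had 81.1% in IR64 salinity and 50.8% in IR64 control. Pokkali had 50% in Pokkali salinity and 53.3% in Pokkali control at those of its cytosines that were listed. Bin 11583201-11583300 (9 CHH and 2 CG) had 86.2% in IR64 salinity and 57.0% in IR64 control. Bin 12332501-12332600 had 60.3% in IR64 salinity and 38.6% in IR64 control at 24 mCs, 18 of them CHH. IR64 desiccation had 57.6% in this bin, N22 control 61.3% and Pokkali control 61.2%, so IR64 control was the lowest of the 7 libraries.

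Under desiccation, too, few bins were called. Between N22 desiccation and N22 control 6 of 7105 tested bins were DMRs (background 0.0948%), all lower under desiccation (background 0.0879%). Between IR64 desiccation and IR64 control 3 of 6924 were (background 0.0628%), all lower (background 0.0247%). With bins shifted by 50 bp IR64 had 2 DMRs (0.0290%, background 0.0645%), both higher, so no direction is given for IR64. The comparisons of IR64 salinity and IR64 desiccation share the control library.

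The listed cytosines overlapped more within a cultivar than between cultivars. Of the CG mCs of the interval listed in either of a pair of libraries, 67.3% to 69.9% were listed in both for the 5 pairs within a cultivar and 55.6% to 63.1% for the 16 pairs between cultivars. In the rest of chromosome 1 the ranges were 71.9% to 74.5% within a cultivar and 50.9% to 63.0% between cultivars. In CHH the ranges in the interval were 37.1% to 39.8% within and 29.6% to 34.6% between cultivars.

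**Figure D5:**
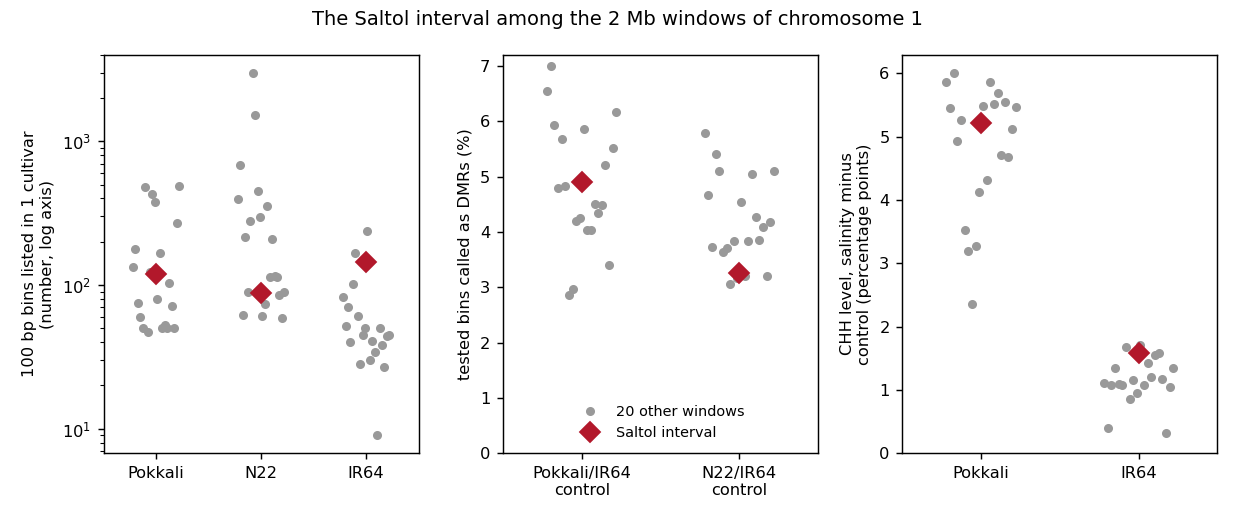
The interval (red diamond) and the 20 other 2 Mb windows of chromosome 1 (grey points) for the number of bins listed in 1 cultivar only (left, log axis), the percent of tested bins called as DMRs (middle) and the CHH difference between salinity and control in percentage points (right). The interval stood near the top for bins of IR64 alone (145, with 2 windows above it) and near the middle for DMRs of Pokkali/IR64 control (4.91%).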

How the data were processed

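Seedlings of IR64, N22 and Pokkali were profiled by whole genome bisulphite sequencing (paired-end reads, 7 libraries). For the control libraries the authors aligned reads to MSU v7.0 with Bismark and kept uniquely mapped and non-clonal reads. They called mCs with methylKit by a binomial test at p 0.001 with at least 5 reads. The study lists a different error rate of this test for each control, lowest in IR64 and highest in N22. The rule for listing a cytosine thus differed between cultivars, and the common error rate given below replaces these rates by the same one. For the stressed libraries the labels name the same tools, and the build, versions and pooling were not given in the sources used here. The authors deposited, for each mC, the read depth as a raw count per cytosine and strand and the methylation level as a percent of those reads. Only cytosines called methylated are listed, and the others were left out of every level instead of being counted as unmethylated.

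The number of methylated reads was computed as depth times level, which gave whole numbers at every mC within the rounding of the level. DMRs were called as described with the report, with Python 3.11.15, numpy 2.4.6, pandas 2.3.3 and scipy 1.17.1, and the call was tested on simulated counts. The Benjamini-Hochberg adjustment stands in for the correction used in the study. Named bins had at least 50 reads in each of the 2 libraries compared and the largest absolute difference. They were 5 higher and 5 lower for Pokkali/IR64 control and 2 and 2 for Pokkali/N22 control. For N22/IR64 control and for each comparison of salinity with control they were up to 3 and 3. Gene lists could not be applied without an annotation of the build. The bounds of the interval come from position, but its choice for description, the rules and the lists were made with earlier results of these data known. Alternatives were a minimum depth of 10, a common error rate of 1%, a cap at the 99th percentile of depth, bins shifted by 50 bp, at least 5 shared mCs, a difference of 30 points, matched depth, each library's own cytosines and a narrower interval (10.7 to 12.3 Mb).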

Additional observations from a re-analysis of the deposited data

Results flagged for a closer look

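The number of mCs listed in the interval moved in opposite directions in Pokkali and IR64 under salinity. It changed by -14.7% in Pokkali (85370 in salinity, 100075 in control) and by 5.68% in IR64 (93721 in salinity, 88683 in control). The change was -12.5% in Pokkali and 9.4% in IR64 for CG, and -11.8% and 5.27% for CHG. CHH did not share this opposition and fell in both, with -22.8% in Pokkali and -1.24% in IR64. In the rest of chromosome 1 the number over all contexts changed by -12.3% in Pokkali and 3.45% in IR64, so the pattern was not limited to the interval. The mean depth per mC in the interval was 12.34 in Pokkali salinity, 15.6 in Pokkali control, 11.8 in IR64 salinity and 13.5 in IR64 control.

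Desiccation showed the same opposition between N22 and IR64. The number of mCs changed by -13.5% in N22 and 13.6% in IR64. In the rest of chromosome 1 it changed by -11.0% in N22 and 10.3% in IR64, so this pattern, too, was not limited to the interval. By context the change in the interval was -16.6% in N22 and 15.9% in IR64 for CG, -14.2% and 13.1% for CHG, and -4.21% and 9.81% for CHH. Levels at shared mCs of the interval also moved apart, with -1.32 points in N22 and 0.36 points in IR64 in CG, -1.88 and 0.25 in CHG, and -2.90 and 1.35 in CHH. In the rest of chromosome 1 they changed by -1.94 points in N22 and 0.03 points in IR64 in CG. The changes there were -2.51 and -0.20 in CHG, and -2.15 and 0.95 in CHH. With 1 library per group the difference between the cultivars was not tested for any of these values, and neither was the part of depth in them.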

How the results depend on the processing

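Leaving out a replicate was not possible with 1 library per group. No paired analysis was possible because each group had 1 library. With each library's own listed cytosines the interval had 597 DMRs for Pokkali/IR64 control (8.37% of tested bins, background 7.34%). It had 485 for N22/IR64 control (7.13%, background 7.58%) and 687 for Pokkali/N22 control (9.44%, background 9.83%). The numbers were 402 for Pokkali/IR64 salinity (5.96%, background 5.83%), 255 for Pokkali salinity/control (3.47%, background 2.96%) and 161 for IR64 salinity/control (2.20%, background 1.93%). At a difference of at least 30 points the numbers were 173, 113, 176, 119, 9 and 1 in the same order. Their shares of tested bins were 2.57%, 1.76%, 2.54%, 1.91%, 0.129% and 0.0145%. The backgrounds were 2.63%, 2.13%, 3.03%, 2.19%, 0.0742% and 0.0153%. With at least 5 shared mCs Pokkali/IR64 control had 213 (4.16%, background 3.46%). At matched depth Pokkali salinity/control had 9 (0.129%, background 0.136%) and IR64 salinity/control 0 (background 0.0246%). At a minimum depth of 10 Pokkali salinity/control had 4 (0.0909%, background 0.22%). The other numbers of DMRs in these 6 comparisons stayed within 1.5 times the reported ones. The CG difference of Pokkali/IR64 control was -0.70 points over mCs listed in all 7 libraries, -1.30 at the common error rate, -0.68 as a mean of site levels and -0.94 at matched depth with mCs called again, an alternative added after the data were seen. That of N22/IR64 control was 1.72, 1.93, 1.46 and 1.21 under these alternatives. The CHH difference of Pokkali salinity/control was 4.24 over mCs listed in all 7 libraries, 3.73 at a minimum depth of 10, 5.59 in the narrower interval and 2.56 at matched depth, and that of IR64 salinity/control was 2.12 over mCs listed in all 7 libraries, 1.01 as a mean of site levels and 0.66 at matched depth. The CHG difference of Pokkali salinity/control was 0.43 at matched depth, against 2.19. Some small differences changed sign. The CHH difference of Pokkali/IR64 control was 0.18 over mCs listed in all 7 libraries and 0.26 at matched depth, the CG difference of Pokkali salinity/control was -0.079 over mCs listed in all 7 libraries, -0.049 as a mean of site levels and -0.17 at matched depth, and the CHG difference of IR64 desiccation/control was -0.065 as a mean of site levels. Bins of Pokkali, N22 and IR64 alone numbered 76, 56 and 95 with at least 5 mCs, 66, 36 and 61 at a minimum depth of 10, and 2, 0 and 3 with both neighbours listed in all 7 libraries. The named bins of the cultivar comparisons were called in 124 of 125 of the alternative values that could be computed, against 32 of 39 for Pokkali salinity/control and 12 of 19 for IR64 salinity/control. The cause of these changes was not tested.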
